A study of Danio rerio with 10 samples.

Results

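Jam2a and Jam3b, a pair of cell surface proteins needed for myoblast fusion, and Rbfox1l and Rbfox2, a pair of splicing factors of muscle, were followed at the RNA level in whole zebrafish embryos. The 4 genes were taken by symbol (jam2a, jam3b, rbfox1l and rbfox2) from a table of 14650 genes. All 4 were present and all 4 passed the filter on low counts, which kept 11871 genes. RNA was sequenced from 5 libraries of wild-type embryos of the ABTU strain and 5 libraries of a tpcn2 mutant, all at the 17 to 18 somite stage and kept at 28 °C. The product of tpcn2 is a cation channel in the membrane of endosomes and lysosomes through which calcium can leave them, and the series title places the comparison in trunk development. The sources used here do not give the allele of the mutant, its strain background or its relation to the ABTU fish. The series calls the replicates biological, but the clutches they came from and the number of embryos in a library are not given either, so genotype cannot be told apart from strain background or clutch.

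Fast muscle fibres of the fish trunk form when single myocytes fuse into fibres with many nuclei. In zebrafish, Jam2a on one cell binds Jam3b on its neighbour, and fast muscle of embryos that lack either protein stays largely unfused. Rbfox proteins bind a short RNA motif beside alternative exons and promote or block inclusion of the exon, and zebrafish embryos depleted of both Rbfox1l and Rbfox2 are paralysed, with disordered muscle. At this stage slow fibres are differentiating and fusion of fast myocytes is at an early phase. The table holds 1 count per gene, so it measures neither exon inclusion nor fusion.

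Total counts per library were 17890367 to 22498643. tpcn2 was at 47.1 to 81.1 CPM (counts scaled to library size with TMM factors) in the 5 wild-type libraries and at 6.72 to 10.3 CPM in the 5 mutant libraries, so the labels and the targeted gene go together. The first principal component of log2 CPM (57.1% of variance) separated the wild-type from the mutant libraries. On the second (10.1%), wild-type replicate 1 scored 33.3 and the remaining 9 libraries -17.0 to 2.65, and values without that library are given beside the results on the 4 genes.

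Of the 4 genes, 3 were lower in the mutant (jam3b, rbfox1l and jam2a), and rbfox2 did not pass the test. jam3b was at 54.8% of its wild-type level, rbfox1l at 66.2% and jam2a at 79.6%. Calls were made with edgeR's quasi-likelihood test at an adjusted p under 0.05, Benjamini-Hochberg over all 11871 genes. By the same rule 42.2% of all tested genes were called, 21.6% lower and 20.6% higher in the mutant, so a call alone does not set a gene apart in these data. A fall as large as that of jam3b was seen in 4.2% of tested genes (498), as large as that of rbfox1l in 7.87% (934) and as large as that of jam2a in 17.3% (2055). All mutant libraries lay below all wild-type libraries for 3 of the 4 genes, as they did for 15.0% of all tested genes. Groups did not overlap, in either direction, for 28.7% of tested genes (13.7% with the mutant above). In whole embryos a lower level can mean fewer cells of a type or less RNA in each cell, and these cannot be told apart.

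**Figure D1:**
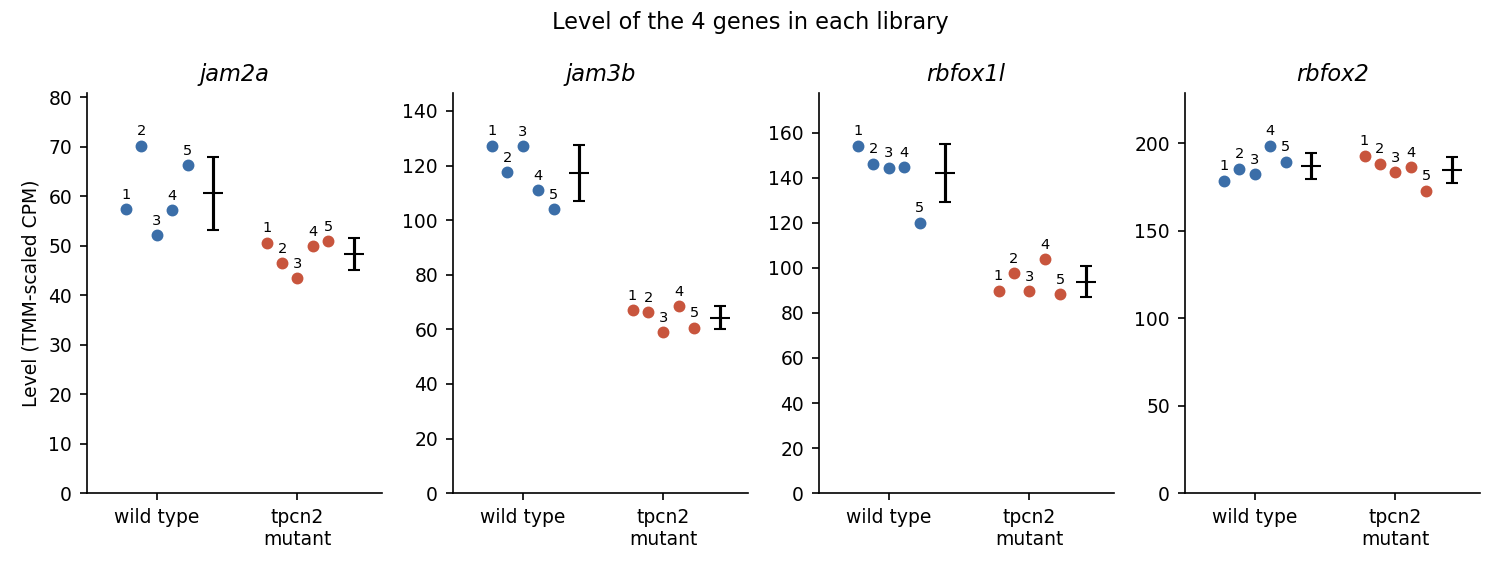
Level of jam2a, jam3b, rbfox1l and rbfox2 in each of the 10 libraries, in TMM-scaled CPM on axes that start at 0 and differ between panels. Points are libraries with their replicate number, and the black bars are the mean ± SD of the 5 libraries of a group. The groups are apart for jam3b and rbfox1l, nearly touch for jam2a (52.2 against 50.9 CPM) and lie over each other for rbfox2.

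jam3b encodes a JAM protein that is bound by Jam2a across the contact between fusing cells. Its level in wild-type replicates 1 to 5 was 127.3, 117.5, 127.1, 110.9 and 104 CPM, and in mutant replicates 1 to 5 it was 67.1, 66.3, 59, 68.6 and 60.6 CPM. Every mutant library was below every wild-type library, with a gap of 35.4 CPM between the lowest wild-type and the highest mutant library. Wild type averaged 117.4 ± 10.2 CPM and the mutant 64.3 ± 4.23 CPM (SD, n = 5). The log2 fold change was -0.87 ± 0.071 (SE), with an edgeR adjusted p of 3.19e-07. The limma-voom fit gave a 95% interval of -1.01 to -0.71 for the log2 fold change. Without wild-type replicate 1 the log2 fold change was -0.84.

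jam2a encodes the partner of Jam3b and was lower by a smaller amount. Its level in wild-type replicates 1 to 5 was 57.4, 70.2, 52.2, 57.1 and 66.2 CPM, and in mutant replicates 1 to 5 it was 50.6, 46.5, 43.4, 49.9 and 50.9 CPM. The groups did not overlap, but only 1.23 CPM separated wild-type replicate 3 from mutant replicate 5. Wild-type replicates 2 and 5 were the highest libraries for jam2a, while wild-type replicate 5 was the lowest of its group for jam3b and for rbfox1l. The means were 60.6 ± 7.38 and 48.3 ± 3.26 CPM (SD, n = 5), a log2 fold change of -0.33 ± 0.0897 (edgeR adjusted p = 0.00483) with a limma-voom 95% interval of -0.51 to -0.15. The log2 fold change was -0.35 without wild-type replicate 1.

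rbfox1l, the Rbfox gene that in zebrafish is expressed chiefly in skeletal and heart muscle, was lower in the mutant. Wild-type replicates 1 to 5 had 154.2, 146.2, 144.4, 144.6 and 120.1 CPM, and mutant replicates 1 to 5 had 89.8, 97.7, 89.7, 103.9 and 88.2 CPM. The groups were 16.1 CPM apart, the nearest libraries being wild-type replicate 5, which stood below the rest of its group, and mutant replicate 4. The means were 141.9 ± 12.9 and 93.9 ± 6.75 CPM (SD, n = 5), a log2 fold change of -0.60 ± 0.0764 (edgeR adjusted p = 1.23e-05) with a limma-voom 95% interval of -0.74 to -0.44. It was -0.65 without wild-type replicate 5 and -0.56 without wild-type replicate 1.

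rbfox2, a more broadly expressed Rbfox gene, had nearly the same level in both genotypes. Wild-type replicates 1 to 5 had 178.6, 185.5, 182.4, 198.6 and 189.5 CPM, and mutant replicates 1 to 5 had 192.8, 188.4, 183.4, 186.2 and 173 CPM. The ranges lay over each other, the highest library being wild type and the lowest mutant. The means were 187 ± 7.65 and 184.7 ± 7.44 CPM (SD, n = 5), a log2 fold change of -0.02 ± 0.0371 that did not pass (edgeR adjusted p = 0.788). The limma-voom 95% interval of the log2 fold change was -0.11 to 0.08, an interval that leaves out changes of the size seen in the other 3 genes. Without wild-type replicate 1 the log2 fold change was -0.03.

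Exact two-sided permutation tests of log2 CPM gave p = 0.00794 for jam2a, jam3b and rbfox1l, the smallest that 5 against 5 libraries allow, and p = 0.667 for rbfox2. That smallest p follows from groups that do not overlap, as in 28.7% of tested genes, so it adds nothing to the lack of overlap. In the authors' deposited table the log2 fold changes were -0.32 (jam2a), -0.85 (jam3b), -0.58 (rbfox1l) and -0.01 (rbfox2), with adjusted p-values there of 0.00102, 9.07e-30, 1.17e-13 and 0.855. The values rest on 851 to 1483 reads per library for jam2a, 1087 to 2470 for jam3b, 1581 to 3073 for rbfox1l and 3101 to 4243 for rbfox2.

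**Figure D2:**
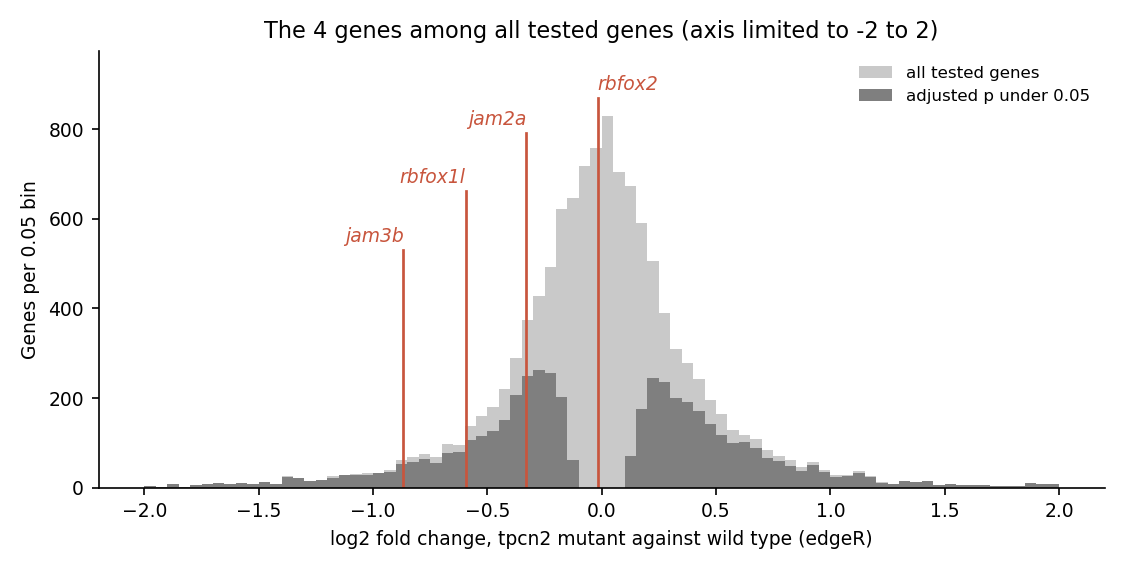
Distribution of the log2 fold change of mutant against wild type over the tested genes (x axis, limited to -2 to 2; y axis, genes per bin), with called genes in dark grey and the 4 genes as red lines. rbfox2 (-0.02) sits at the middle of the distribution, and jam2a (-0.33), rbfox1l (-0.60) and jam3b (-0.87) sit on its lower flank.

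The genes of each pair moved by different amounts, which was tested with ratios within a library, since these do not depend on the scaling between libraries. Gene length was not corrected for, so a ratio of CPM is no ratio of transcripts. Its change between genotypes is unaffected by length if each gene's transcripts keep the same length in both, which was not tested. The CPM of jam2a was 0.451, 0.598, 0.411, 0.516 and 0.637 times that of jam3b in wild-type replicates 1 to 5. In mutant replicates 1 to 5 it was 0.755, 0.701, 0.736, 0.728 and 0.84 times. Every mutant ratio was above every wild-type ratio, and the mutant libraries were closer to each other. On the log2 scale the jam2a to jam3b ratio rose by 0.54 ± 0.127 (SE), from -0.96 ± 0.266 to -0.41 ± 0.0985 (SD, n = 5; exact two-sided permutation p = 0.00794, adjusted p = 0.0119 over the 6 pairs).

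Between the Rbfox genes, the CPM of rbfox1l was 0.863, 0.788, 0.792, 0.728 and 0.634 times that of rbfox2 in wild-type replicates 1 to 5. It was 0.466, 0.519, 0.49, 0.558 and 0.51 times in mutant replicates 1 to 5. The groups did not overlap, and wild-type replicate 5 was the closest to the mutant range. The log2 ratio of rbfox1l to rbfox2 fell by 0.58 ± 0.0867 (exact permutation p = 0.00794, adjusted p = 0.0119). The jam3b to rbfox2 ratio fell by 0.85 ± 0.0843 and the jam3b to rbfox1l ratio by 0.27 ± 0.0491 on the log2 scale, both without overlap of the groups and at the same adjusted p of 0.0119, by exact permutation. The jam2a to rbfox2 ratio fell by 0.31 ± 0.0955 (exact permutation p = 0.0238, adjusted p = 0.0286) with overlapping groups, and the call was lost (adjusted p = 0.0571) without wild-type replicate 1 or 2 or mutant replicate 1, 2, 3 or 4. The jam2a to rbfox1l ratio differed by 0.27 ± 0.132 and did not pass (exact permutation p = 0.0635, adjusted p = 0.0635). It passed only without wild-type replicate 5 (difference 0.36, adjusted p = 0.0381, and up to 0.127 in other fits). Where groups did not overlap, the exact permutation p of 0.00794 is the smallest possible. The share of all gene pairs that would be called in this way was not computed, so these calls do not set the 4 genes apart. The level of rbfox2 hardly differed (log2 fold change -0.02), so the ratios to rbfox2 largely restate the falls of the other genes.

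**Figure D3:**
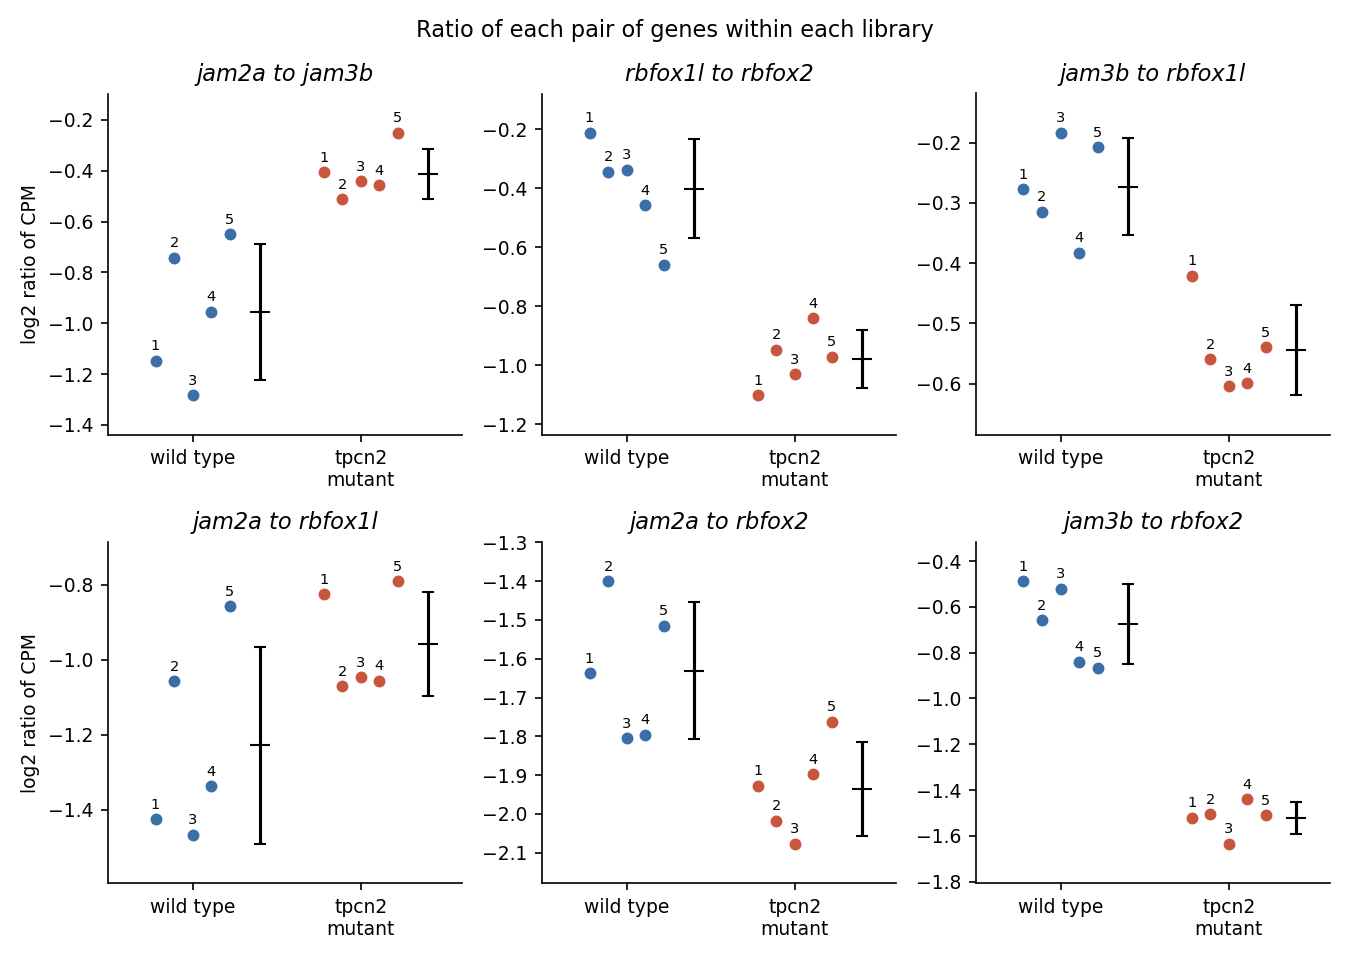
Ratio of CPM (log2 scale, y axes that differ between panels) of each of the 6 pairs of the 4 genes within each library, with replicate numbers. Black bars are the mean ± SD of 5 libraries. The genotypes do not overlap for jam2a to jam3b, rbfox1l to rbfox2, jam3b to rbfox1l and jam3b to rbfox2, and they overlap for jam2a to rbfox1l and jam2a to rbfox2.

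The other tested genes of the JAM family had values of both signs. f11r.1, a gene of the JAM-A type found in epithelia, rose from 156.8 ± 9.32 to 194.4 ± 5.06 CPM (log2 fold change 0.31 ± 0.0428). f11r.2, its paralog, fell from 15.1 ± 2.4 to 10 ± 2.65 CPM (-0.59 ± 0.202). jam2b, the paralog of jam2a, averaged 12.9 ± 1.2 CPM against 15.4 ± 2.35 CPM in mutant libraries, which missed the threshold (log2 fold change 0.25 ± 0.118, edgeR adjusted p = 0.0845). It passed in 1 of 17 alternative fits, that without mutant replicate 5 (adjusted p = 0.0268), and adjusted p was up to 0.21 in the others. jam3a, the paralog of jam3b, was on the list but was not matched to the table, so it has no value here. The sources used here do not say how reads shared between paralogs were counted, so values of close paralogs are uncertain to that extent.

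The list of JAM relatives, tight junction scaffolds and polarity proteins held 28 genes, of which 17 were matched to the table. Among those not matched were tjp1a, tjp1b, afdna and afdnb. Of the 15 tested genes other than jam2a and jam3b, 5 rose and 1 fell. The median log2 fold change of these 15 was 0.21, against -0.001 for all tested genes. With jam2a and jam3b, both called themselves, 47.1% of the list's 17 tested genes were called, against 42.2% of all tested genes. That share is raised by these members. Those that rose include prkci (0.23 ± 0.0329), the atypical protein kinase C of the Par polarity complex, and tjp3 (0.27 ± 0.0542), a scaffold of tight junctions. esama (0.50 ± 0.123), an adhesion gene of endothelial cells, also rose, from 7.22 ± 0.884 to 10.2 ± 1.34 CPM. The remaining gene that rose was cxadr (0.15 ± 0.0481; edgeR adjusted p = 0.0439), an adhesion gene of the same immunoglobulin superfamily, named after its values were seen.

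Other genes of myoblast fusion moved in both directions. Of 31 tested members of the list without jam2a and jam3b, 6 rose and 4 fell, and the median log2 fold change was -0.002. With jam2a and jam3b, both called themselves, 36.4% of the 33 members were called, against 42.2% of all tested genes. tmem8c, the older symbol of mymk, encodes Myomaker, the membrane protein that drives the merging of myoblast membranes. It averaged 56.6 ± 12.6 CPM against 44.7 ± 5.55 CPM in mutant libraries, with overlapping ranges (41.3 to 76.1 against 38.6 to 53 CPM). Its log2 fold change of -0.34 ± 0.161 passed narrowly (edgeR adjusted p = 0.0465) and missed the threshold in 11 of 17 alternative fits, with an adjusted p of 0.126 and a log2 fold change of -0.21 without wild-type replicate 2. Adjusted p was also above 0.05 with limma-voom (0.0591), with a mean of at least 1 CPM (0.0502), with the replicate block (0.054), without wild-type replicate 3 (0.0655), 4 (0.0556) or 5 (0.0774), and without mutant replicate 1 (0.103), 2 (0.114), 3 (0.0727) or 5 (0.0766). kirrel3l, a zebrafish gene of the immunoglobulin superfamily needed for fusion, averaged 88.8 CPM against 88.6 CPM in mutant libraries (log2 fold change -0.002 ± 0.0388). It was named after its values were seen.

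Signalling genes of the fusion list moved in both directions. The adaptor gene crkl rose from 105.3 ± 3.24 to 132.1 ± 6.98 CPM (0.33 ± 0.0394), and waslb (0.31 ± 0.0395), which promotes branched actin assembly, dock5 (0.35 ± 0.0813), which encodes an activator of Rac, and rac1a (0.14 ± 0.0357) also rose. elmo1, the partner of Dock proteins, fell from 59 ± 2.81 to 48.8 ± 2.69 CPM (-0.28 ± 0.0466). cxcr4b, a chemokine receptor gene, fell from 53.8 ± 4.17 to 43.3 ± 2.51 CPM (-0.31 ± 0.061). rac1b fell by 0.17 ± 0.0582 on the log2 scale (edgeR adjusted p = 0.0428). That call was lost without any one of wild-type replicates 2 (adjusted p = 0.0705), 4 (0.0729) and 5 (0.117) and of mutant replicates 1 (0.083), 2 (0.0995) and 4 (0.103), and with no filter on low counts (0.0508).

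**Figure D4:**
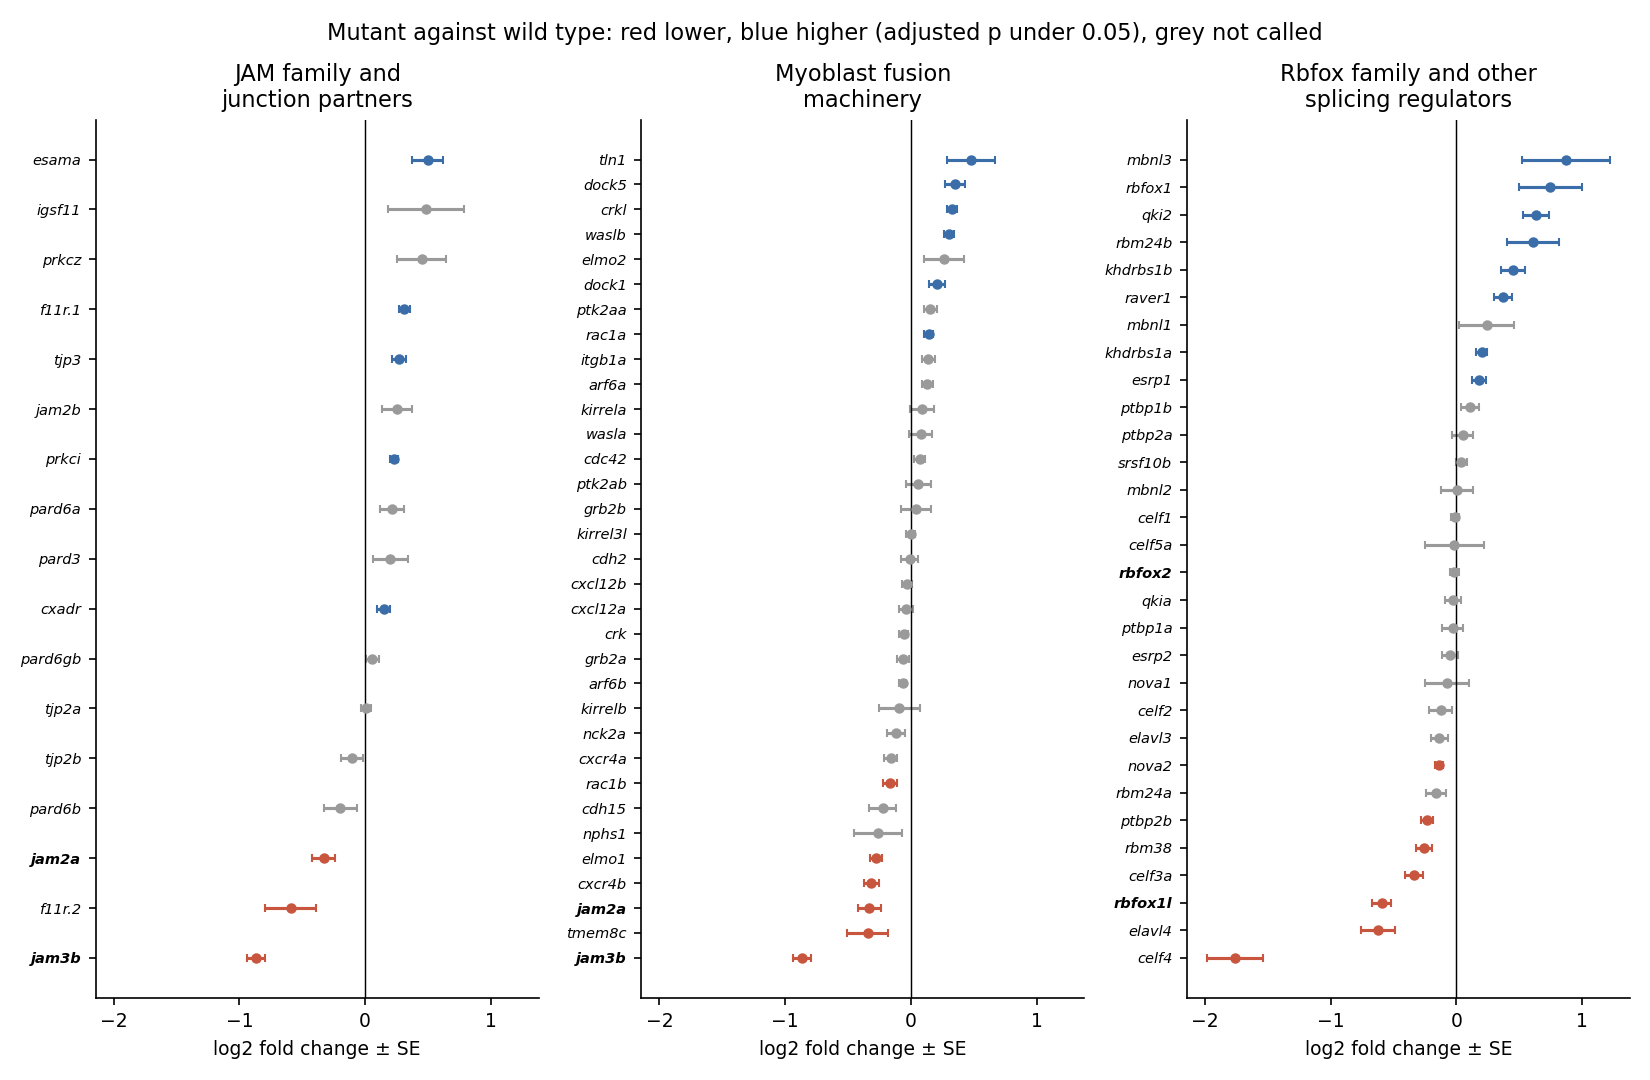
Log2 fold change of mutant against wild type (x axis) with its SE for each tested gene of the JAM and junction list, the fusion list, and the Rbfox and splicing lists, ordered by value. Red and blue points were called lower and higher by edgeR (adjusted p under 0.05), grey points were not called, and the 4 genes have bold names. jam3b is the lowest point of the first and second panels, at -0.87, and rbfox1l (-0.60) and rbfox2 (-0.02) lie apart in the third.

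Of the Rbfox family 3 genes were tested, and rbfox3a and rbfox3b were not matched to the table. rbfox1, which in vertebrates is chiefly a neuronal and muscle gene, had few reads, 352 over all libraries, and averaged 1.31 ± 0.439 CPM against 2.22 ± 0.499 CPM in mutant libraries. Its log2 fold change of 0.75 ± 0.25 passed (edgeR adjusted p = 0.0305) with overlapping ranges (0.904 to 1.81 against 1.51 to 2.72 CPM), and 7 of 17 alternative fits lost the call. These were the replicate block (adjusted p = 0.0656) and the fits without wild-type replicate 1 (0.0597), 3 (0.0611) or 4 (0.0722) or without mutant replicate 1 (0.0746), 3 (0.067) or 4 (0.0627). The summed CPM of the 3 Rbfox genes was 311.3 to 344.2 in wild-type libraries and 262.7 to 292.5 in mutant libraries, without overlap. This lower sum largely restates the fall of rbfox1l, which averaged 141.9 CPM against 93.9 CPM in mutant libraries. The mean of rbfox2 hardly differed (187 against 184.7 CPM) and that of rbfox1 was higher, so the sum shows no fall shared by these 3 genes.

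Other splicing regulators were called in 13 of 27 cases, 7 higher and 6 lower, or 48.1% against the 42.2% of all tested genes, and the median log2 fold change was -0.02. qki2 (0.63 ± 0.105), which encodes a Quaking RNA-binding protein, rose, as did khdrbs1b (0.45 ± 0.0949) and khdrbs1a (0.20 ± 0.0409), of the Sam68 type, and raver1 (0.37 ± 0.0746), a co-factor of the splicing repressor PTB. Of the 6 that fell, 4 are given by the naming rule. celf4 fell from 6.81 ± 2.1 to 2.01 ± 0.414 CPM (-1.76 ± 0.223), elavl4 by 0.63 ± 0.136, celf3a by 0.34 ± 0.0698 and ptbp2b by 0.23 ± 0.0481 on the log2 scale. In mouse muscle cells Rbfox2 regulates exons of Mef2d, Rock2 and Lrrfip2. Of their 4 zebrafish counterparts tested here, rock2b rose from 49.7 ± 4.81 to 59.5 ± 2.95 CPM (0.26 ± 0.0698), and mef2d (-0.14 ± 0.085), rock2a (0.04 ± 0.0622) and lrrfip2 (-0.14 ± 0.0664) did not pass. These are levels of the whole gene and say nothing of its exons.

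Of 19 tested fast fibre markers 8 fell (edgeR; 2 rose without wild-type replicate 2), with a median log2 fold change of -0.31. The called share was 42.1%, against 42.2% of all tested genes (21.6% lower). ckmb, a muscle creatine kinase gene, fell from 136.9 ± 23.8 to 87.4 ± 10.1 CPM and eno3, the muscle enolase gene, from 28.5 ± 4.6 to 19.8 ± 1 CPM. The summed fast fibre level was 1213 to 1969 CPM in wild type and 1077 to 1377 CPM in the mutant, with overlap. Of 13 slow fibre markers 6 fell and 1 rose (median -0.25), or 53.8% called against 42.2% of all tested genes, with myl10, a slow myosin light chain gene, falling from 486.5 ± 18.3 to 383.1 ± 8.94 CPM and tnnt2d from 1.77 ± 0.271 to 0.616 ± 0.168 CPM. tnni1al was the gene that rose (0.63 ± 0.245), a call lost without wild-type replicate 3 (adjusted p = 0.0676) or 5 (0.0741) or mutant replicate 3 (0.0697) or 4 (0.0911). The summed slow fibre level was 2105 to 2327 CPM in wild type and 1657 to 1978 CPM in the mutant, without overlap.

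Each of the 4 genes was set against these sums within a library, and each ratio was compared between genotypes. How far any pair of the genes differ against the same sum is given by their own ratio above. For jam2a to rbfox1l that ratio did not pass. The log2 ratio of jam3b to the slow fibre sum fell by 0.57 ± 0.0844, without overlap of the groups (exact permutation p = 0.00794, adjusted p = 0.0423 over the 8 ratios tested). Its ratio to the fast fibre sum fell by 0.55 ± 0.142, with overlapping groups (exact permutation p = 0.0159, adjusted p = 0.0423). rbfox1l fell by 0.30 ± 0.0765 against the slow fibre sum, with overlapping groups (exact permutation p = 0.0238, adjusted p = 0.0476). Its difference of -0.28 ± 0.117 against the fast fibre sum did not pass (exact permutation p = 0.0556, adjusted p = 0.0847). jam2a differed by -0.009 ± 0.114 against the fast and -0.03 ± 0.0803 against the slow fibre sum, and neither passed (exact permutation p = 0.937 and 0.714, adjusted p = 0.937 and 0.816). The log2 ratio of rbfox2 to the slow fibre sum was higher in the mutant by 0.27 ± 0.0709, with overlapping groups (exact permutation p = 0.0159, adjusted p = 0.0423). The level of rbfox2 itself hardly differed (log2 fold change -0.02), while the mean slow fibre sum was 2208 CPM (wild-type libraries) and 1806 CPM (mutant libraries). Any gene of unchanged level would show a similar rise, so this ratio reflects the lower sum and not a change in rbfox2. The rbfox2 ratio to the fast fibre sum differed by 0.30 ± 0.14 and did not pass (exact permutation p = 0.0635, adjusted p = 0.0847).

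Of the 8 ratios 4 were called, among them that of rbfox2 to the slow fibre sum, which reflects the lower sum. The share of all tested genes that would be called against these sums was not computed, so this count does not set the 4 genes apart. With 1 library left out, the smallest p that an exact test of 4 against 5 allows is 0.0159, so a call lost in such a fit says little about the library left out, and the adjusted p of the called ratios rose above 0.05 in most of these fits. The call for jam3b against the fast fibre sum was kept only without wild-type replicate 2 (adjusted p up to 0.0847 otherwise), for jam3b against the slow fibre sum only without wild-type replicate 2 or mutant replicate 4 (up to 0.0847), and for rbfox2 against the slow fibre sum only without mutant replicate 4 (up to 0.0847). For rbfox1l against the slow fibre sum it was lost in all 10 fits (up to 0.0952). The differences in these fits kept their direction and were -0.65 to -0.45, -0.62 to -0.53, 0.23 to 0.31 and -0.37 to -0.28 on the log2 scale.

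**Figure D5:**
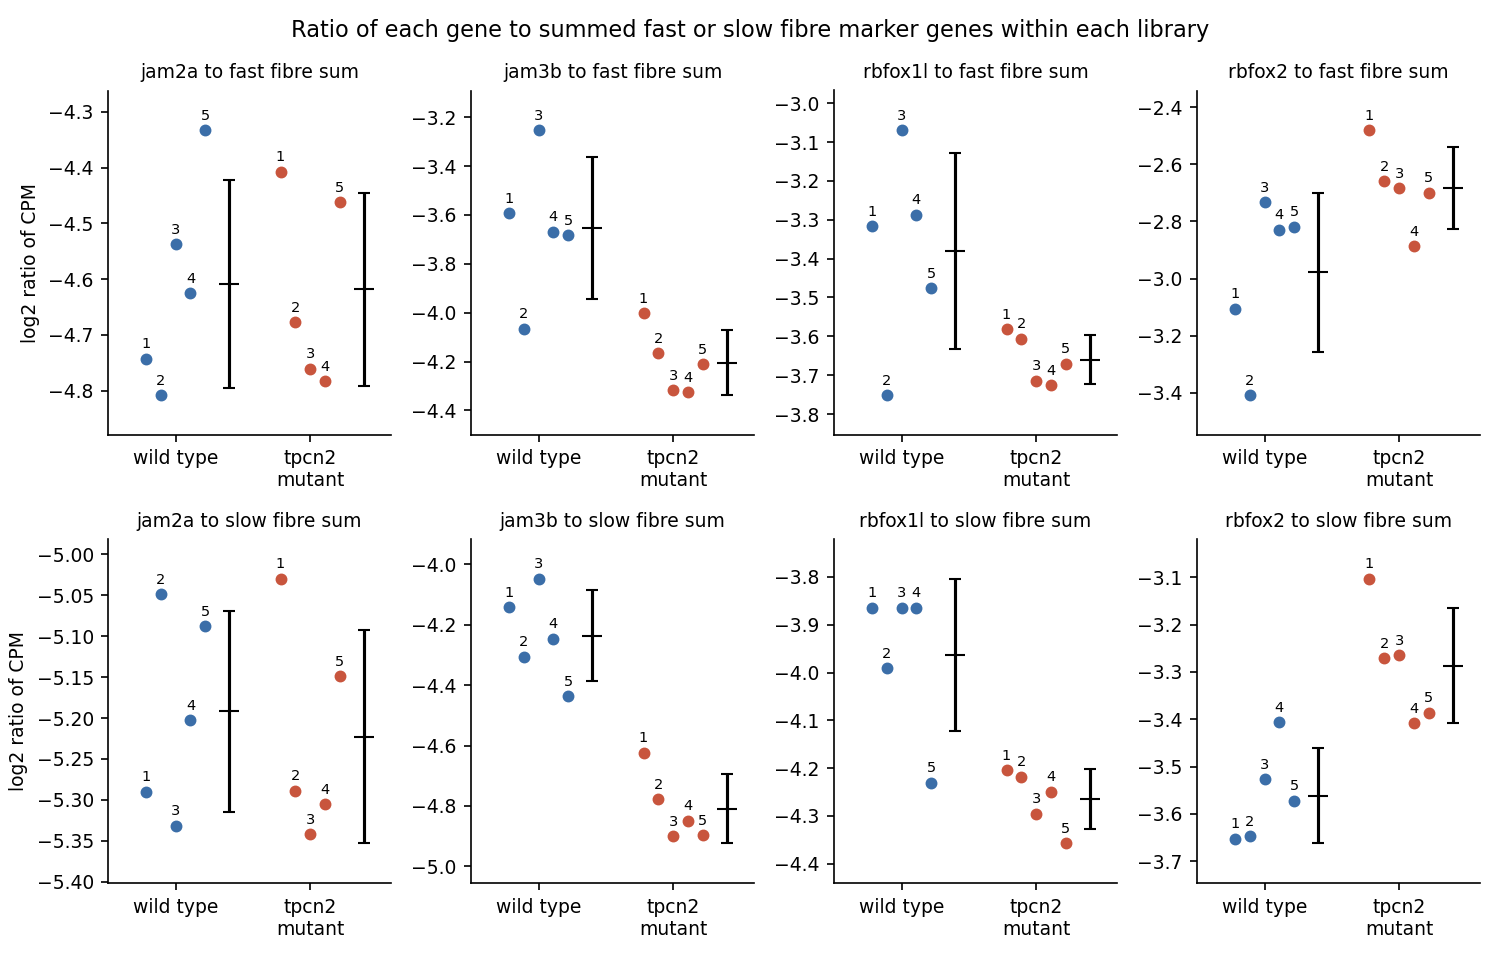
Ratio of the CPM of each of the 4 genes to the summed CPM of fast fibre (upper row) or slow fibre (lower row) marker genes within each library, on a log2 scale with y axes that differ between panels. Points are libraries with replicate numbers and black bars are the mean ± SD of 5 libraries. jam2a overlaps between genotypes in both rows, and jam3b lies lower in the mutant, with no overlap for the slow fibre sum. The genotypes overlap in all other panels.

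Myogenic regulators also moved in both directions. Of 27 tested members of that list 5 rose and 6 fell, with a median log2 fold change of -0.01. The called share of 40.7% was near the 42.2% of all tested genes. The early myogenic factor gene myf5 rose from 38.5 ± 8.54 to 62.4 ± 4.85 CPM, and prdm1a (0.40 ± 0.0806), the slow fibre regulator, fgf8a (0.34 ± 0.0736) and six1a (0.39 ± 0.0935), a regulator of fast muscle, rose. pax7b (-0.73 ± 0.133), pax7a (-0.67 ± 0.109) and pax3a (-0.42 ± 0.0661), genes of muscle precursors and neural crest, and eya1 (-0.34 ± 0.0369), which encodes a partner of the six1a product, fell. Of the myogenic factors named after their values were seen, myog, which acts in differentiation, fell (-0.21 ± 0.0506; edgeR adjusted p = 0.00492), and myod1, the determination factor, did not pass (-0.04 ± 0.0642).

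Markers of other cell types that can hold JAM or Rbfox RNA were counted in the same way. The called share was 35.7% of endothelial, 62.5% of neural, 58.8% of epidermis and periderm, 80.0% of notochord and 54.5% of primitive blood markers, against 42.2% of all tested genes. The summed levels of epidermis and of blood markers overlapped between the genotypes. The summed level of 14 endothelial markers was 272.3 to 299.9 CPM in wild type and 344.8 to 381.7 CPM in the mutant, with 4 higher, among them cldn5b (1.11 ± 0.114) and sox7 (0.61 ± 0.0788), and vsg1 lower (-0.59 ± 0.22; 6 of 17 alternative fits lost this call, with adjusted p up to 0.0824). Of 16 neural markers 9 fell, among them tubb5 (-0.98 ± 0.0625) and snap25a (-0.98 ± 0.124), and sox2 rose (0.45 ± 0.222; lost in 10 of 17 fits, adjusted p up to 0.106), with summed levels of 1487 to 1752 and 1295 to 1453 CPM. Of 17 epidermis and periderm markers 5 rose, such as cldne (0.54 ± 0.0661) and epcam (0.58 ± 0.0773), and 5 fell, such as anxa1b (-2.03 ± 0.0538) and icn (-2.68 ± 0.296), at sums of 37631 to 43652 and 37554 to 41481 CPM. Of 10 notochord markers 6 rose, such as loxl5b (0.82 ± 0.117) and col8a1a (0.49 ± 0.086), and cav1 (-1.72 ± 0.132) and col9a1a (-1.41 ± 0.261) fell, at sums of 692.3 to 871.5 and 920.5 to 1002 CPM. Of 11 primitive blood markers 3 rose, such as tal1 (0.27 ± 0.0593) and alas2 (0.32 ± 0.122; lost in 4 of 17 fits, adjusted p up to 0.0712), and 3 fell, such as hbbe2 (-1.23 ± 0.232) and urod (-0.32 ± 0.0499), at sums of 603.1 to 673.4 and 609.6 to 692.1 CPM. No tested marker averaged 0 in either group, the lowest means being 0.689 CPM in wild type (pecam1, endothelial) and 0.616 CPM in the mutant (tnnt2d, slow fibre). Genes with few reads in all libraries were left out by the filter on low counts, among them 9 of 28 fast fibre markers in the table. These means are therefore no measure of which cell types were present. The part of the fibre and other markers in the results on the 4 genes was not tested.

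For each of the 4 genes the genes of most like pattern were found by the root mean square difference of log2 CPM over the 10 libraries, each gene centred on its own mean, among genes with a mean of at least 10 CPM. For jam3b these were ube2s (0.0771), tubb5 (0.109) and mrpl27 (0.109), for rbfox1l ap1s2 (0.084), stmn1b (0.0882) and tuba8l3 (0.0893), and for jam2a arhgap12b (0.0715), arl13b (0.073) and bag1 (0.0816). For rbfox2, plekhh1 (0.0305) and patl1 (0.0384) are given, whose levels, like that of rbfox2, did not pass the test (log2 fold changes of -0.01 and -0.001). Of the other genes of the pair, jam2a stood at a difference of 0.325 from jam3b and rbfox1l at 0.313 from rbfox2, while jam3b and rbfox1l were 0.152 apart. rbfox1l ranked 43 of 7494 genes by likeness to jam3b, and jam3b ranked 174 by likeness to rbfox1l. All these differences are over the same 10 libraries and include the shift between genotypes. A similar fold change alone therefore brings genes near each other. ap1s2, stmn1b and tuba8l3 had log2 fold changes of -0.58, -0.59 and -0.57, against -0.60 for rbfox1l. The differences and ranks thus largely restate the fold changes, and whether jam3b and rbfox1l vary together within a genotype was not tested.

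Neighbouring genes were called about as often as any others. In the gene order of the RefSeq annotation of GRCz12tu, an assembly other than the builds named by the submitters and used for order alone, 17 of the 40 nearest tested neighbours (5 on each side of each gene) were called, or 42.5% against the 42.2% of all genes. Of the 17 called neighbours 12 were lower and 5 higher, while 21.6% of all tested genes were called lower and 20.6% higher. jam3b had 5 of 10 called neighbours (3 lower), rbfox1l 5 (4 lower), jam2a 4 (3 lower) and rbfox2 3 (2 lower). None of the 4 genes is on the chromosome of tpcn2 in that assembly, and no other gene of the count table overlaps their spans there. The span of rbfox2 overlaps 1 annotated lncRNA gene that is not in the count table.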

How the data were processed

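RNA-seq of 5 wild-type and 5 tpcn2 mutant libraries of whole embryos was analysed from the deposited raw counts per gene symbol (14650 genes, 522 with no read). The submitters' processing notes list cutadapt 3.4, STAR 2.7, DESeq2 1.30.0 and, as genome builds, danRer10 and mm10, with no role stated. The sources used here name no counting program, gene annotation or strandedness, so a gene's reads may include those of an antisense partner. The authors' deposited comparison gives, per the file headers, log2 fold changes with their errors, a test statistic (score), p-values and adjusted p-values, and a signal (mean normalized count over the libraries). Its direction was read from tpcn2, and it served no test here.

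Libraries were grouped by labelled genotype. The quasi-likelihood test of edgeR 4.0.16 (glmQLFit, glmQLFTest; R 4.3.3) was run on genes kept by filterByExpr, after TMM scaling, with genotype as the single term, Benjamini-Hochberg adjustment over 11871 genes and a threshold of 0.05. Each SE belongs to the difference between group means of log2 CPM (prior count 2). Intervals are 95% intervals of limma 3.58.1 (voom). Ratios were tested with exact two-sided permutation (252 splits; scipy 1.17.1, Python 3.11.15), adjusted over 6 pairs and over 8 ratios to fibre marker sums. Each p-value sets the difference between genotypes against the spread between these libraries, whose clutches and numbers of embryos are not known.

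The 4 genes and the 13 gene lists were chosen with earlier results of these data known, so list counts are descriptions. Of 255 list genes 218 were matched to the table, 9 of them by a synonym, and 206 were tested. Named were up to 4 genes per direction and pathway list and 2 per marker list, smallest p first, every JAM and Rbfox gene, and the 3 genes of most like pattern for each of the 4, of which 1 is not reported here. Alternatives were RLE size factors, library size alone, DESeq2 1.42.0, limma-voom, no filter, a mean of at least 1 CPM, the replicate number as a block, a prior count of 0.5, and leaving out each library. Same-numbered libraries of the genotypes had correlated deviations of -0.06 to 0.07 only, so the numbers were not taken as pairs.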

Additional observations from a re-analysis of the deposited data

Results flagged for a closer look

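In 166 groups of 5 libraries (the 4 genes, their ratios and the named genes), 9 had a library whose gap to its nearest neighbour was over 0.71 of the whole range, and chance flags about 1 in 20 such groups. For rbfox1l, wild-type replicate 5 had 120.1 CPM, below the 144.4 to 154.2 CPM of its group. Wild-type replicate 4 stood above its group for cldn5b (5.46 CPM against 3.78 to 4.18), plekhh1 (88.5 against 79.3 to 81.7) and patl1 (158 against 145.3 to 147.9). Mutant replicate 4 stood below its group for myf5 (53.8 CPM against 63.8 to 65.7) and above it for myl10 (398.4 against 374.8 to 381.4). Mutant replicate 3 was low for anxa1b (34.4 CPM against 39.6 to 41.7) and arhgap12b (69.8 against 78.6 to 81.2), and mutant replicate 1 was low for cav1 (10.6 against 13.5 to 14). plekhh1 and patl1 were chosen for likeness to rbfox2, whose highest library was wild-type replicate 4. arhgap12b was chosen for likeness to jam2a, whose lowest library was mutant replicate 3. The flags of plekhh1, patl1 and arhgap12b are therefore not separate observations, and the rate of 1 in 20 does not apply to them.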

How the results depend on the processing

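The calls on jam2a, jam3b and rbfox1l and the absence of one on rbfox2 held in all 17 alternative fits. Leaving out 1 library gave log2 fold changes of -0.38 to -0.27 for jam2a, -0.91 to -0.84 for jam3b, -0.65 to -0.56 for rbfox1l and -0.03 to 0.01 (-0.0333 to 0.00648) for rbfox2, whose sign turned without wild-type replicate 4 or mutant replicate 5. Adjusted p reached at most 0.0162 for jam2a. With the replicate number as a block, 2378 genes were higher and 2451 lower (2442 and 2569 without it), 3 of the 4 genes were lower, and of the genes named the block ended the calls of tmem8c (0.054), rbfox1 (0.0656) and alas2 (0.0536). Same-numbered libraries had correlations of -0.06 to 0.07.

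Without 1 library the differences of log2 ratios were 0.21 to 0.36 for jam2a to rbfox1l and -0.35 to -0.25 for jam2a to rbfox2. Against the fast fibre sum they were -0.06 to 0.06 for jam2a (-0.0616 to 0.0601), -0.65 to -0.45 for jam3b, -0.37 to -0.20 for rbfox1l and 0.19 to 0.36 for rbfox2. Against the slow fibre sum they were -0.08 to 0.01 for jam2a (-0.0792 to 0.0051), -0.62 to -0.53 for jam3b, -0.37 to -0.28 for rbfox1l and 0.23 to 0.31 for rbfox2. The comparisons of rbfox1l and rbfox2 with the fast fibre sum passed only without wild-type replicate 2 and only without mutant replicate 4, respectively (exact permutation, adjusted p = 0.0423 in each). In the other fits adjusted p was up to 0.169 for both. A fit with fewer libraries has a larger smallest p. patl1 turned sign with RLE (0.0017), DESeq2 (0.0023) and a mean of at least 1 CPM (0.0028), and its range without 1 library was -0.010 to 0.021 (-0.0104 to 0.0210). That of plekhh1 was -0.0274 to 0.0126. The number of blood markers called higher was 1 in 4 fits. Of the genes of like pattern, the 3 of jam2a, rbfox1l and rbfox2 were the same with a minimum of 1 CPM, and 2 of 3 for jam3b. Reads per library limit single values of rbfox1, at 352 reads in all.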

Other observations

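Library-to-library spread exceeded counting error in all 4 genes. In wild type the coefficient of variation was 12.2% for jam2a, 8.68% for jam3b, 9.06% for rbfox1l and 4.09% for rbfox2, against 2.9%, 2.07%, 1.88% and 1.64% expected from the number of reads alone. In the mutant it was 6.75%, 6.58%, 7.19% and 4.02%, against 3.26%, 2.83%, 2.35% and 1.67%. These shares treat each read as a separate count.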
